A study of Mus musculus with 6 samples.

Results

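The cells described here are those gated as sinusoidal endothelial cells, the endothelium that lines the liver's capillaries, in single-cell RNA sequencing of dissociated mouse liver. A kept cell was taken when Cdh5, Pecam1 and Ptprb, which mark all endothelium, together gave at least 3 unique molecular identifiers (UMIs, counted transcripts), and when Stab2, Clec4g, Oit3 and Gpr182, markers of the sinusoid, also gave at least 3. It had to hold 0 UMIs of the lymphatic gene Mmrn1 and at most 1 UMI over Cd3d, Cd3e, Cd3g and Cd79a, the genes of T and B cell receptors. The gate took 1430 of 42682 kept cells (44656 barcodes in all): 85, 174 and 384 cells in the 3 control libraries and 331, 128 and 328 in the 3 knockout libraries. Members were thus chosen by measured UMIs of these 12 genes, so the levels of its own genes and the contrast with ungated cells are descriptions without a test.

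All 6 mice were fed chow until 8 weeks of age and then received western diet with carbon tetrachloride (WD-CCl4) for 12 weeks, which induces metabolic dysfunction-associated steatohepatitis (MASH). The 3 knockouts were Stingfl/fl Cdh5-Cre+ and the 3 littermate controls Stingfl/fl Cdh5-Cre-, so floxed alleles were shared by both groups and no untreated group was analysed here. Cre driven by the Cdh5 promoter is active in endothelium at large, not only in sinusoids, and each mouse gave 1 library, the unit of replication. The labels call the cells liver sinusoidal endothelial cells, whereas the protocol text describes whole liver. Library depth ran from 55017937 to 73867890 UMIs, and gated cells held 1108383 to 4944234 UMIs per library with median depths of 9122 to 12528 UMIs and 3198 to 3956 genes per cell. Between any 2 libraries, at most 0.328% of barcodes were shared, and 0 barcodes of gated cells were.

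Sinusoidal endothelium is fenestrated and lacks an organised basement membrane, and it clears macromolecules from blood through scavenger receptors such as the stabilins and the mannose receptor. It is zoned along the lobule: endothelium near the central vein releases R-spondin 3 and Wnt ligands, while endothelium near the portal tract carries Notch and ephrin ligands such as Dll4 and Efnb2. In chronic injury sinusoidal cells can lose these features and take on those of larger vessels, a change called capillarization. STING, the product of Sting1, relays the sensing of DNA in the cytosol to the interferon and NF-kB programmes.

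The markers fitted the label in part. A transcript of Gpr182, an atypical chemokine receptor, was seen in 90.8% to 97.3% of gated cells per library, and those of Gata4, a transcription factor of sinusoidal identity, in 79.9% to 87.8%. Stab2, the hyaluronan scavenger receptor, was seen in 12.9%, 13.2% and 38.3% of gated cells in controls and in 48.0%, 25.8% and 16.8% in knockouts. Dnase1l3, a secreted DNase that the gate did not read, was seen in 11.8%, 5.75% and 35.7% of gated control cells and in 49.2%, 15.6% and 18.3% of gated knockout cells. B cells (at least 3 UMIs over Cd79a, Cd79b and Ms4a1) gave Dnase1l3 in 9.16% to 18.5% at median depths of 4783 to 6319 UMIs, and only control 3 and knockout 1 stood well above that share. Whether B cells make Dnase1l3 themselves was not tested, so their share need not be one of background. Gated cells held more Dnase1l3 than the stricter class of other endothelial cells, defined below, in every library. For Gpr182 the B cell share was 0.396% to 3.496%, and for Stab2 it was 0.201% to 1.38%. With each cell thinned to 1000 UMIs, which left out 1 gated cell, Stab2 was seen in 5.75% to 28.2% of gated cells and Gpr182 in 24.7% to 32.2%.

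Genes of larger or central veins were frequent in the gate too. Selp, which encodes P-selectin, was seen in 79.2% to 90.2% of gated cells per library, Vwf, the von Willebrand factor gene, in 69.8% to 90.2%, and Rspo3, which encodes R-spondin 3, in 43.0% to 82.4%. The B cell shares for these were at most 4.13%, 2.33% and 2.75%. Selp stood at 3532, 3568 and 2894 CPM (UMI counts of the gated cells scaled to the same total in every library) in controls and at 3052, 1809 and 3467 CPM in knockouts, and the groups overlapped. Rspo3 stood at 1757, 1353 and 1190 CPM in controls and at 1563, 978 and 1274 CPM in knockouts. The gated cells are therefore named by their gate below, and no other cell type name is given to them.

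Within the gate, levels of Stab2 and Dnase1l3 differed far more between libraries than those of Gpr182. Stab2 was at 139, 77.8 and 275 CPM in controls and at 380, 128 and 81.7 CPM in knockouts, and Dnase1l3 at 50.5, 10.1 and 134 CPM and at 188, 49.4 and 38.5 CPM. The high libraries for both genes were control 3 and knockout 1. Clec4g, a sinusoidal C-type lectin, ranged from 92.3 to 281 CPM and Oit3 from 74.8 to 247 CPM, each highest in knockout 1, while Gpr182 kept between 250 and 359 CPM. Cdh5, the cadherin of endothelial junctions, ranged from 499.8 to 676 CPM. On the GRCm38 build, Stab2 (ENSMUSG00000035459) spans chromosome 10, 86841198 to 87008025 (minus strand), and Rspo3 (ENSMUSG00000019880) spans 29452416 to 29535867 on the same chromosome and strand. Gpr182 (ENSMUSG00000058396) spans 127747276 to 127751732 there, and Selp (ENSMUSG00000026580) is on the plus strand of chromosome 1 from 164115264 to 164150026.

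**Figure D1:**
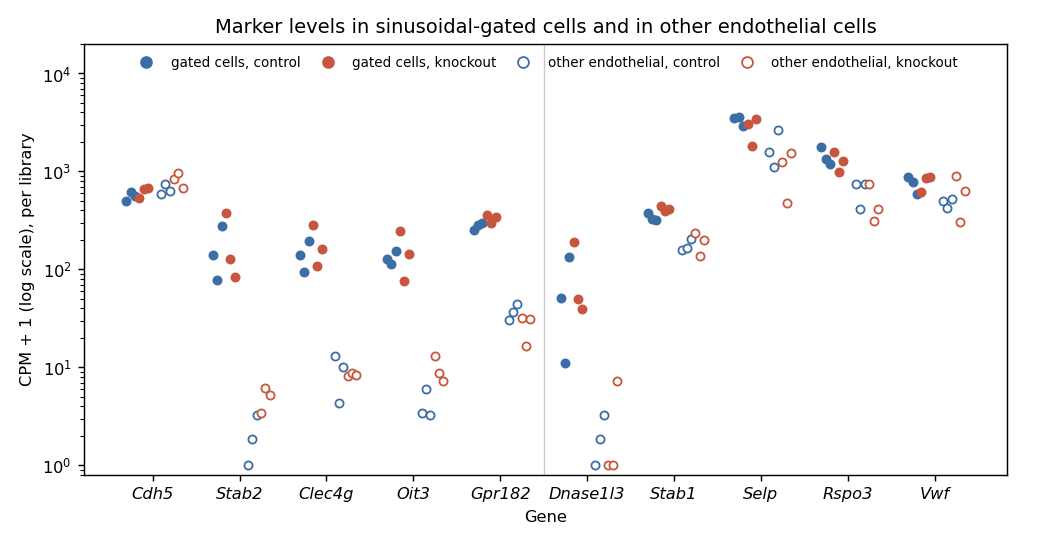
CPM + 1 on a log axis for 10 genes; each filled point is the gated cells of 1 library and each open point is the other endothelial cells of that library (492 cells, defined in the text), blue for control and red for knockout. The 5 genes left of the line were read by the gate; right of it, Dnase1l3 spans 10.1 to 188 CPM in gated cells while Selp, Rspo3 and Vwf are high in both classes.

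The threshold of the gate cut through a continuum. The 204 cells with 2 UMIs over the sinusoidal markers, just outside the gate, held 9.45 CPM of Stab2, 134 CPM of Gpr182, 205 CPM of Gata4, 2498 CPM of Selp and 890 CPM of Rspo3. The 178 cells with exactly 3 UMIs, just inside it, held 14.2 CPM of Stab2, 170 CPM of Gpr182, 270 CPM of Gata4, 3040 CPM of Selp and 1350 CPM of Rspo3. Among gated cells, 360 had 3 to 4 UMIs, 541 had 5 to 9 and 529 had 10 or more over these genes. Over these bands Stab2 was at 15.8, 39.5 and 462 CPM and Maf, a transcription factor gene, at 344, 408 and 751 CPM, with Selp at 3128, 3353 and 2755 CPM. Stab2 and Gpr182 are part of the sum that set the bands, so their rise follows from the cut. The band of 10 or more held 11.5% of the gated cells of control 2 and 55.9% of those of knockout 1, the lowest and highest libraries.

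Rspo3 split the gated cells into nearly separate sets. Of 1430 cells, 620 held 0 UMIs of Rspo3, 20 held 1 to 2, 26 held 3 to 4, 67 held 5 to 9 and 697 held 10 or more. Stab2 and Dnase1l3 together gave 0 UMIs in 879 cells and 10 or more in 184. The cells were therefore split into 4 subsets by UMI counts after these distributions had been seen, and their defining genes are descriptions. Cells with at least 2 UMIs of Ptprc, of Dcn, of Krt7, Krt19 and Epcam together or of Msln and Upk3b together, or at least 5 of Alb, were set apart as holding transcripts of another cell type (230 cells, 16.1%). Their median depth was 18664 UMIs, against 10267, 6528 and 11275 in the other subsets. Of the rest, 643 cells (44.97%) had at least 3 UMIs of Rspo3, 235 (16.4%) had fewer but at least 3 over Stab2 and Dnase1l3, and 322 (22.5%) had neither.

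**Figure D2:**
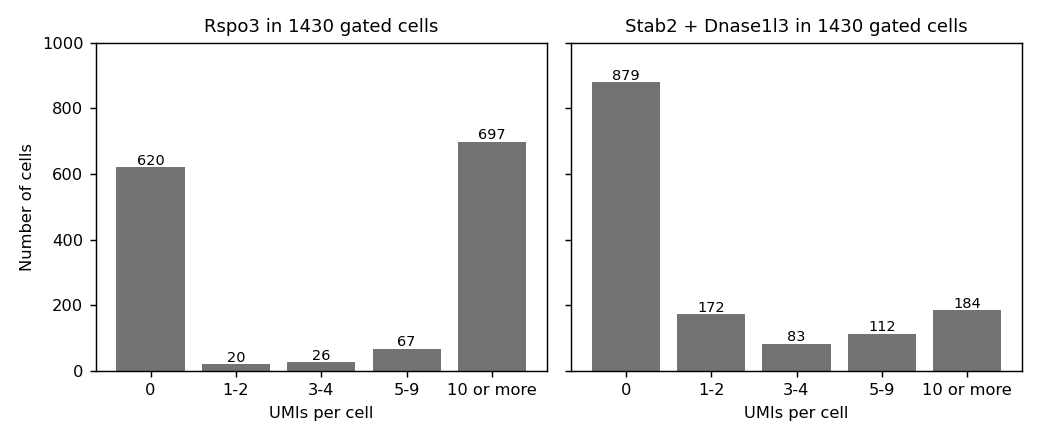
Number of gated cells (y axis) by UMIs per cell (x axis) of Rspo3 (left) and of Stab2 plus Dnase1l3 (right), over all 6 libraries. For Rspo3, 620 cells sit at 0 and 697 at 10 or more UMIs with 113 between; for Stab2 plus Dnase1l3, 879 sit at 0.

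Some genes known from central vein endothelium were higher in the Rspo3 cells. Pooled over libraries they held 161 CPM of Wnt9b and 212 CPM of Wnt2, the Wnt ligands of the central lobule, against 5.89 and 79.8 CPM in the Stab2 cells and 1.90 and 3.81 CPM in the cells with neither. Thbd, the thrombin receptor thrombomodulin, was at 365 CPM there, against 146 and 162 CPM. Selp reached 5415 CPM, against 494 and 1646 CPM. Cyp1b1, a cytochrome P450 gene, was at 182 CPM, against 0 and 1.19 CPM. Tgfb2, which encodes a TGF-beta ligand, was at 142 CPM, against 1.07 and 3.81 CPM. In every library the Selp level of these cells, 3458 to 6184 CPM, exceeded that of the Stab2 cells, 321 to 693 CPM in the 4 libraries with at least 10 such cells. These genes were named after their values had been seen.

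Several scavenger receptor genes, likewise named after their values had been seen, were higher in the Stab2 cells. Mrc1, the mannose receptor gene, stood at 854 CPM there, against 116 CPM in Rspo3 cells and 243 CPM in cells with neither, and Lyve1, a hyaluronan receptor gene, at 336 CPM, against 32.7 and 188 CPM. Maf was at 1382 CPM, against 527 and 377 CPM. Cd36, a fatty acid and scavenger receptor gene, was at 687 CPM, against 96.9 and 341 CPM, and Adam23 at 809 CPM, against 27.4 and 32.6 CPM. Clec4g was at 602 CPM, against 167 and 121.9 CPM. These cells also held the least Vwf, 214 CPM, against 1050 and 791 CPM.

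Several arterial genes, named after their values had been seen, were higher in the cells with neither than in the other subsets. Gja5, the gene of connexin 40, was at 415 CPM there, against 2.77 CPM in Rspo3 cells and 123 CPM in Stab2 cells, and the Notch ligand Dll4 at 246 CPM, against 9.13 and 159 CPM. The ephrin ligand Efnb2 was at 360 CPM in them and at 364 CPM in Stab2 cells, against 24.6 CPM in Rspo3 cells. Mgp, which encodes matrix Gla protein, was at 1034 CPM, against 27.1 and 78.2 CPM. By contrast, Gpr182, at 349, 475 and 353 CPM in Rspo3, Stab2 and remaining cells, Stab1, at 469, 531 and 345 CPM, and Gata4, at 386, 341 and 227 CPM, varied little across the 3.

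**Figure D3:**
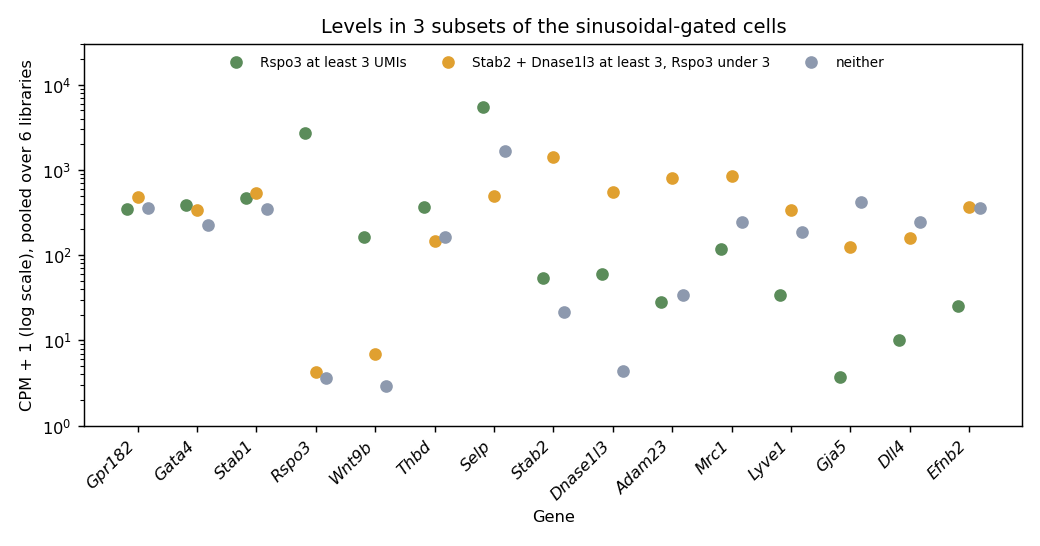
CPM + 1 on a log axis, pooled over 6 libraries, for 15 genes in Rspo3 cells (643, green), Stab2 cells (235, orange) and cells with neither (322, grey). Gpr182, Gata4 and Stab1 lie close together, whereas Wnt9b (161 CPM) is highest in Rspo3 cells, Mrc1 (854 CPM) in Stab2 cells and Gja5 (415 CPM) in the rest; Rspo3, Stab2 and Dnase1l3 defined the subsets.

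The make-up of the gate varied from mouse to mouse. Rspo3 cells were 70.6%, 54.6% and 35.2% of gated cells in controls and 44.1%, 33.6% and 50% in knockouts. Stab2 cells were 8.24%, 2.30% and 24.5% in controls and 25.1%, 14.1% and 8.84% in knockouts. Cells with neither were 5.88%, 24.7% and 21.9% in controls and 14.8%, 37.5% and 28.4% in knockouts. The groups overlapped in all 3 subsets, with means of 53.4% ± 17.7 and 42.6% ± 8.31 for Rspo3 cells, 11.7% ± 11.5 and 16.0% ± 8.29 for Stab2 cells and 17.5% ± 10.2 and 26.9% ± 11.4 for the rest (SD, n = 3). Controls 1 and 2 held only 7 and 4 Stab2 cells, so no test was made within that subset. Sums over the gate mix these subsets, and these data do not separate fewer cells of a type from less RNA in each.

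**Figure D4:**
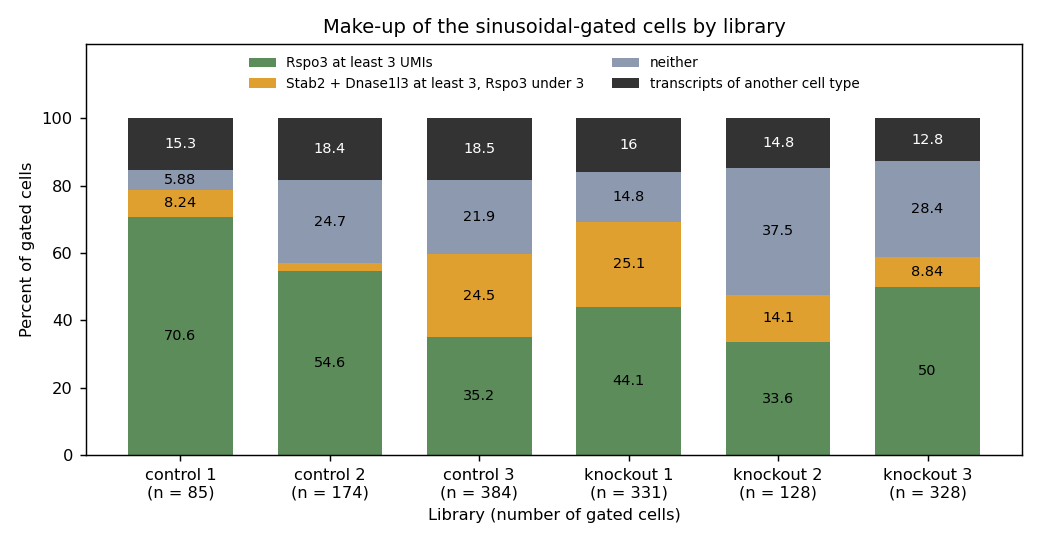
Percent of gated cells (y axis) in each subset, stacked for each of the 6 libraries (x axis, with the number of gated cells). Rspo3 cells run from 33.6% to 70.6% and Stab2 cells from 2.30% to 25.1%, and control and knockout libraries overlap in each.

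Against all other kept cells, the gated cells were higher in every library for F8, the factor VIII gene (455 ± 101 CPM against 10.9 ± 2.69, mean and SD over 6 libraries, log2 ratio 5.28 with a pseudocount of 1 CPM), Selp (3054 ± 669 CPM against 58.9 ± 24.6, log2 ratio 5.74) and Mrc1 (186 ± 103 CPM against 4.08 ± 1.14, log2 ratio 5.04). Cells of the endothelial rule with a sinusoidal sum of 0 or 1 (2346 cells) served as the planned comparison, but they were themselves mixed. They held 445 to 829 CPM of Ptprc, the pan-leukocyte gene, and 55.9 to 168 CPM of Cdh5, against 64.1 to 158 CPM and 499.8 to 676 CPM in gated cells. A stricter class, with a UMI of both Cdh5 and Ptprb and none of Ptprc (492 cells), was therefore added after seeing the data. Against it, besides the genes of the gate, gated cells were higher in every library for Dnase1l3 (78.4 ± 67.7 CPM against 1.56 ± 2.47), Lyve1 (93.7 ± 51.3 against 15.2 ± 15.7), F8 (455 ± 101 against 162 ± 45.5) and the Fc receptor gene Fcgr2b (235 ± 69.3 against 56.3 ± 15.5). They were lower in every library for Sema3g, an arterial semaphorin gene (13.1 ± 8.56 CPM against 398 ± 98.5), and Rgs5, a gene of mural cells (19.5 ± 27.0 against 574 ± 438). Selp (1433 ± 719 CPM) and Rspo3 (564 ± 206 CPM) were high in the stricter class too, so neither is particular to the gate.

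Transcripts of other cell types were present in the gate and moved with the libraries. Summed over the 11 B and plasma cell genes, the level was 131 to 817 CPM in controls and 102 to 176 CPM in knockouts, most of it the immunoglobulin gene Igkc in controls 1 and 2. The 10 neutrophil genes summed to 15.7 to 1012 CPM in controls and 36.6 to 2078 CPM in knockouts, highest in control 3 and knockout 1, the 2 libraries with the most Stab2. The 15 stellate and fibroblast genes summed to 253 to 614 CPM and 95.5 to 870 CPM, and the 10 cholangiocyte genes to 77.6 to 1108 CPM and 365 to 882 CPM. Of 14 macrophage and Kupffer cell genes, Clec4f, Cd5l and Marco were at 0, and the list summed to 114 to 266 CPM and 119 to 309 CPM. The 13 T cell genes summed to 34.0 to 71.3 CPM and 33.6 to 75.9 CPM, and the 10 NK genes to 54.8 to 158 CPM and 28.0 to 65.8 CPM. Gpm6a, listed for mesothelium, was seen in 55.7% to 81.2% of gated cells and was at 383 CPM in Rspo3 cells, against 29.4 CPM in Stab2 cells. The part of these transcripts in the genotype results below was not tested. Counts of calls, and medians of the chemokine and MHC class II lists, are given below without cells that hold such transcripts.

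The first question of the genotype comparison was whether endothelial Sting loss altered how many cells passed the gate. Gated cells were 1.06%, 1.93% and 7.89% of kept cells in controls and 4.59%, 1.97% and 4.65% in knockouts. Exact (Clopper-Pearson) 95% intervals, which cover counting error only, ran from 0.846% to 1.31% in control 1 and from 7.15% to 8.69% in control 3, so the controls differed among themselves by more than counting error. The means were 3.63% ± 3.72 and 3.74% ± 1.53 (SD, n = 3), an exact two-sided permutation p of 0.9, where 0.1 is the smallest that 3 against 3 libraries can give. Of cells meeting the endothelial rule, 16.9%, 19.5% and 57.7% passed the gate in controls and 48.5%, 26.8% and 43.3% in knockouts (31.3% ± 22.8 and 39.5% ± 11.3, exact permutation p = 0.7). After Benjamini-Hochberg adjustment both of these 2 tests stand at 0.9. The cells that met the endothelial rule but not the gate were mixed and held Ptprc, as given above. Of the 2346 with a sinusoidal sum of 0 or 1, only 492 met the stricter class. The second share is therefore not one of endothelium alone. Without control 3 the shares of cells meeting the endothelial rule were 18.2% ± 1.87 and 39.5% ± 11.3, with an exact p of 0.2, the smallest that 2 against 3 libraries can give in this two-sided test, and the groups did not overlap. That difference was 21.3 percentage points, against 8.18 with all 6 libraries. With any other library left out it ran from 0.941 (without control 1) to 14.5 points (without knockout 2), and the groups overlapped.

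Sting1, the targeted gene, was at 26.4, 27.1 and 26.4 CPM in gated control cells and at 21.6, 14.1 and 26.1 CPM in knockouts (CPM here and below are scaled by edgeR's TMM factors). After this scaling all 3 knockout values lay below all 3 controls, as in 5.41% of genes tested, knockout 3 by a narrow margin and knockout 2 by the widest. Without the factors knockout 3 did not lie below control 1. The log2 fold change was -0.34 (SE 0.23, unadjusted p = 0.17) by edgeR's quasi-likelihood test. In Rspo3 cells alone Sting1 was at 27.4, 24.9 and 25.2 CPM in controls and at 24.1, 15.03 and 29.6 CPM in knockouts, and the groups overlapped. The floxed exons are not named in the labels and the assay reads transcript ends, so Sting1 counts may or may not track recombination.

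No gene passed the test across the transcriptome. Of 11497 genes tested on UMIs summed per library, edgeR called 0 (percent called 0) at an adjusted p under 0.05, and the smallest adjusted p was 0.98. DESeq2 also called 0, with a smallest adjusted p of 0.16. At an unadjusted p under 0.05 there were 471 genes, 4.1% of those tested, with 192 higher and 279 lower in knockouts. The knockouts lay above all controls in 647 genes (5.63%) and below all of them in 622 (5.41%).

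The genes of smallest p in each direction, restricted to genes averaging log2 CPM 4 or more, are given as values, since none was called. Clec14a, an endothelial C-type lectin gene, was at 258, 201 and 201 CPM in controls and at 335, 320 and 348 CPM in knockouts (log2 fold change 0.61, SE 0.14). The groups did not overlap, nor did they in Rspo3 cells alone, at 218 to 255 CPM and 350 to 410 CPM. Clec14a was named from the whole gate, of which these cells are a part, so their values are no separate support. Meis1, a homeobox gene, was at 76.3, 84.8 and 96.0 CPM in controls and at 124, 162.9 and 131 CPM in knockouts (0.68, SE 0.15). Kctd12b was at 16.9, 20.2 and 20.6 CPM and at 34.5, 39.0 and 31.6 CPM (0.83, SE 0.17). For Cdkn1c, the gene of the cell cycle inhibitor p57, the log2 fold change was 0.65 (SE 0.18), again without overlap.

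Among the lower genes, Nmnat2, which encodes an NAD-synthesising enzyme, was at 24.5, 31.2 and 32.3 CPM in controls and at 9.74, 18.2 and 12.7 CPM in knockouts (log2 fold change -1.18, SE 0.25). Tank, the gene of an adaptor in TBK1 and NF-kB signalling, was at 69.7, 75.0 and 78.5 CPM in controls and at 45.2, 55.2 and 49.3 CPM in knockouts (-0.59, SE 0.14). Both kept their groups apart over the whole gate. In Rspo3 cells alone the Tank difference turned to 0.24, and with the gate applied to cells thinned to 2000 UMIs (384 cells) that of Nmnat2 turned to 0.15. Tmsb10, the gene of the actin-binding thymosin beta 10, was at 893, 870 and 772 CPM in controls and at 461, 514 and 604 CPM in knockouts (-0.68, SE 0.15). Gm10076, a predicted gene, was at 191, 154 and 163.8 CPM and at 89.4, 103 and 114 CPM (-0.73, SE 0.15). Adjusted p values of these named genes by edgeR were all 0.98.

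Heat shock genes, which encode chaperones, lay lower in knockouts with 1 exception, and none was called. Of 21 members tested, 20 had lower values in knockouts and 1 higher, with a median log2 fold change of -0.39 against 0.01 over all genes tested. Among them, 8 lay below all controls where 5.41% of genes did, and 9 had an unadjusted p under 0.05 in the lower direction, where 4.1% of genes did in either. Hspa1b, the gene of an inducible Hsp70 chaperone, was at 4849, 7779.5 and 6499 CPM in controls and at 2303, 3694 and 3536 CPM in knockouts (log2 fold change -1.01, SE 0.23). Its neighbour Hspa1a, whose near-identical sequence can take its reads, was at 6202, 7009.8 and 6371.5 CPM and at 2963, 3915 and 5362 CPM (-0.68, SE 0.21). The groups did not overlap for either. Hspb1, which encodes Hsp27, was at 3689, 3992 and 3615 CPM and at 1459.6, 1894.5 and 3039 CPM (-0.82, SE 0.25), and Hspd1, the mitochondrial chaperonin gene, at 130, 209 and 172 CPM and at 101, 101 and 121.7 CPM (-0.66, SE 0.18). Knockout 3 was the nearest to controls for Hspa1a, Hspb1 and Hspd1.

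Hspa1b was named from the whole gate, so its values in the subsets, which are parts of the same cells, are no separate support. Hspa1b was lower in knockouts in each subset apart from the mixed-transcript cells, whose values are not given here. In Rspo3 cells it was at 4912, 8074 and 6704 CPM in controls and at 2571, 2216 and 3074 CPM in knockouts. Among cells with neither it was at 7967 and 9167 CPM in controls 2 and 3 and at 3927, 5258 and 4694 CPM in knockouts. In Stab2 cells control 3 stood at 6372 CPM and the knockouts at 2639 to 3471 CPM. The groups did not overlap in the first 2 of these, and the Stab2 subset has a single control library with enough cells. In the test of whether the genotype difference differs between gated cells and the stricter other endothelial cells, Hspa1b gave a log2 difference of -0.11 (SE 0.17), at 5094 and 2663 CPM in the other endothelial cells of control and knockout. Hsp90aa1, the gene of an inducible Hsp90, was at 1487, 1491 and 1636 CPM against 933, 967 and 1263.5 CPM (-0.54, SE 0.16).

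The upstream sequences of 4 of these genes are shown because they are the heat shock genes named here for which RefSeq (GRCm38.p6) gave a promoter. Each runs 5′ to 3′ over the 250 bases before the start, and capitals mark GAANNTTC, a core of the heat shock element that reads the same on both strands, so each match is counted once. It was present in 6.69% of 32851 such windows and in 7.73% of 27025 genes, and in 7 of the 17 heat shock genes with a window. Hspa1a is chr17:34972157-34972406 and Hspa1b chr17:34959239-34959488, both on the minus strand, Hspb1 is chr5:135887669-135887918 on the plus strand, and Hspd1 is chr1:55087933-55088182 on the minus strand, the second of its 2 starts (the first has 0 matches).
Hspa1a: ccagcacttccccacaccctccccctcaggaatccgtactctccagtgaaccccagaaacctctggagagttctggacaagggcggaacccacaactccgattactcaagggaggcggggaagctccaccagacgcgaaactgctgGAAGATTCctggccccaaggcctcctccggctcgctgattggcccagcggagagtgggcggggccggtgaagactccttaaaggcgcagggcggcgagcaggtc
Hspa1b: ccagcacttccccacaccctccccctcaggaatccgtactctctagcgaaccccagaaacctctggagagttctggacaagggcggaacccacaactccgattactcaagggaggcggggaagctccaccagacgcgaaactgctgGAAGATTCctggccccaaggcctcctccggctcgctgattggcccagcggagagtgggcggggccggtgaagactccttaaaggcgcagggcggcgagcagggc
Hspb1: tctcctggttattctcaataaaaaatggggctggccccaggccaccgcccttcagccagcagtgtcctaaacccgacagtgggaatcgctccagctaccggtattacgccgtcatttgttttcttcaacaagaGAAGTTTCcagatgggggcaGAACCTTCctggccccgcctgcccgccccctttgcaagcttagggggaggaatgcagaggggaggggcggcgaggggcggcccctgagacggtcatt
Hspd1: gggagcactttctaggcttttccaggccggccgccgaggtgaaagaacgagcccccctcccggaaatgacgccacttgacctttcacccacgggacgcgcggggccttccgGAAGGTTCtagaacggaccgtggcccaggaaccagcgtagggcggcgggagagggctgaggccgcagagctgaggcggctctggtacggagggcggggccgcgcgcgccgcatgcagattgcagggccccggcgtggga
The match begins 104 bases before the start in both Hspa1a and Hspa1b, 117 and 97 bases before it in Hspb1 and 139 bases before it in Hspd1. A match is a run of letters and says nothing of binding in these cells.

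Immediate early genes, transcription factors and regulators switched on soon after a stimulus, lay lower too. Of 29 tested, 27 were lower and 2 higher in knockouts (median log2 fold change -0.31), 4 of them below all controls, where 5.41% of all genes were. The median was -0.17 without knockout 1 and -0.49 without knockout 3. Fos was at 7921, 8246 and 7154 CPM in controls and at 4467.5, 6216 and 6548 CPM in knockouts (-0.44, SE 0.17), and Atf3 at 2027, 1978 and 1966 CPM and at 1006, 1242 and 1665 CPM (-0.61, SE 0.19). The 31 NF-kB and inflammatory genes gave 24 lower and 7 higher (median -0.30, but -0.09 without control 3 and -0.14 with the gate on thinned cells). Of these, Relb, a subunit of NF-kB, was at 173, 147 and 128 CPM against 102, 90.6 and 117 CPM (-0.52, SE 0.16), and Cebpb, a transcription factor of the acute phase, at 263, 263 and 272 CPM against 200.1, 134 and 204 CPM (-0.56, SE 0.17). None was called. The median share of mitochondrial UMIs per gated cell was 1.78%, 2.03% and 2.22% in controls and 2.52%, 2.55% and 2.17% in knockouts, and its part in these differences was not tested. The immediate early list was drawn up as genes of tissue dissociation too, and the part of dissociation in these differences was not tested.

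Nuclear genes of oxidative phosphorylation gave 26 lower and 8 higher of 34 (median -0.21), with 16 below all controls, where 5.41% of all genes were, and 1 above, where 5.63% were. Atp5e, of ATP synthase, was at 182, 156 and 125 CPM in controls and at 93.4, 114 and 102 CPM in knockouts (-0.57, SE 0.16), Uqcr10, of complex III, at 101, 88.9 and 82.0 CPM and at 65.6, 63.5 and 67.7 CPM (-0.45, SE 0.13), and Ndufa1, of complex I, at 84.7, 78.5 and 63.0 CPM and at 51.8, 50.5 and 54.3 CPM (-0.51, SE 0.15). The most abundant member, Cox4i1, was at 405, 394 and 382 CPM and at 432, 407 and 398 CPM (0.07, SE 0.12). The 16 genes of the unfolded protein response gave 13 lower and 3 higher (median -0.22, but -0.12 without control 2 and -0.14 without knockout 1), among them Hyou1, an ER chaperone gene, at 24.5, 33.5 and 28.8 CPM against 18.5, 21.9 and 20.6 CPM. None of either list was called.

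The genes of the STING pathway and of the interferon response did not lie to one side. The 15 pathway genes tested gave 8 lower and 7 higher (median -0.01), and the 39 interferon-stimulated genes 21 lower and 18 higher (median -0.01). Among the pathway genes, Ifih1, which encodes the RNA sensor MDA5, was at 185, 257 and 292 CPM in controls and at 152, 132 and 220 CPM in knockouts (-0.55, SE 0.23), and the kinase gene Tbk1 at 97.0, 92.9 and 77.0 CPM and at 71.1, 63.5 and 80.8 CPM (-0.29, SE 0.15). Both overlapped between groups. Ifitm3, the most abundant interferon-stimulated gene, was at 1116, 1283 and 1274 CPM and at 1183, 987 and 1203.5 CPM (-0.12, SE 0.14), and Bst2, the gene of tetherin, at 314, 397 and 392 CPM and at 377, 328 and 355 CPM (-0.06, SE 0.14). Of the 24 genes of the interferon-gamma GTPase list, 15 were lower and 9 higher (median -0.04). Leaving out 1 library turned the median of each of these 3 lists, that of the pathway to 0.02 without knockout 3, and those of the interferon-stimulated and GTPase genes to 0.13 and 0.16 without control 3. Irgm1, an immunity-related GTPase gene, was at 186, 222 and 235 CPM against 181, 123 and 137 CPM (-0.55, SE 0.17), without overlap.

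Chemokine and antigen presentation genes leaned lower in knockouts, and leaving out control 3 turned both medians. Of 14 chemokine genes 11 were lower and 3 higher (median -0.40), and of 13 MHC class II genes 12 were lower and 1 higher (median -0.27). Without control 3 these medians were 0.09 and 0.02. The class II median also ran from -0.59 without control 1 to -0.04 without knockout 1 (-0.11 without control 2 and -0.56 without knockout 3), and the chemokine median was -0.19 without knockout 2. Without the cells set apart for transcripts of another cell type, the class II median was -1.17 and the chemokine median -0.25. In Rspo3 cells alone they were -1.16 and -0.05. Without cells holding markers of other types, Gpm6a not counted among these, the class II median was 0.08. Ccl4 was at 95.1, 111 and 102 CPM in controls and at 26.6, 44.3 and 76.3 CPM in knockouts (-1.06, SE 0.36), and Ccl5 at 112.03, 42.7 and 58.7 CPM against 14.97, 40.6 and 28.5 CPM (-1.35, SE 0.47), both without overlap. Cxcl9 was at 134, 107 and 293 CPM against 167, 113 and 120 CPM (-0.44, SE 0.39), with overlap. H2-Aa, a class II chain gene, was at 82.8, 384 and 410 CPM against 166, 232 and 339 CPM (-0.27, SE 0.61), and Cd80, a costimulatory ligand gene, at 4.71, 9.81 and 8.24 CPM against 3.33, 3.12 and 1.91 CPM (-1.50, SE 0.41). Leukocytes express these genes too, and Ptprc itself was at 64.1, 127 and 88.2 CPM in gated control cells and at 70.8, 158 and 76.7 CPM in knockouts before TMM scaling. The 22 MHC class I genes gave 17 lower and 5 higher (median -0.08), with H2-K1 at 1339 ± 65.5 CPM and 1335 ± 98.8 CPM (SD, n = 3).

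Endothelial identity genes leaned the other way, and none was called. Of 22 pan-endothelial genes 19 were higher and 3 lower (median 0.14), and 5 lay above all controls where 5.63% of genes did. The list includes Pecam1 and Ptprb, which the gate itself read, and Ptprb was among those 5, so these counts are a description. Clec1a, a C-type lectin gene, was at 74.4, 100.4 and 88.4 CPM in controls and at 113, 159 and 116 CPM in knockouts (0.55, SE 0.18). Of 20 scavenger and endocytosis genes 17 were higher and 3 lower (median 0.16). That median was 0.06 without control 1, 0.09 without control 2, 0.33 without control 3, 0.10 without knockout 1 and 0.00 with the gate on thinned cells. Lgmn, which encodes the lysosomal protease legumain, was at 191, 181 and 182 CPM against 288, 208 and 214 CPM (0.36, SE 0.16), and Stab1, the other stabilin, at 394, 337 and 321 CPM against 417, 390 and 420 CPM (0.23, SE 0.13). The groups did not overlap for Lgmn and did for Stab1. For the 36 sinusoidal identity genes the count was 26 higher and 10 lower (median 0.16), but the median was -0.03 without knockout 1, 0.03 without control 2 and 0.24 without control 3 or knockout 2. Nts, which encodes neurotensin, was the exception of that list in size, at 49.0, 52.5 and 39.8 CPM in controls and at 22.3, 6.77 and 20.6 CPM in knockouts (-1.42, SE 0.36).

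Both zone lists had a positive median, the larger one in the periportal genes. All 15 periportal genes tested were higher in knockouts (median 0.35), among them Ltbp4, a matrix gene, at 309, 402 and 394 CPM against 348, 520 and 470 CPM (0.27, SE 0.18), and Ntn4, the netrin 4 gene, at 374, 432 and 426 CPM against 367, 752 and 455 CPM (0.35, SE 0.25). Of the 15, 2 lay above all controls, where 5.63% of all genes did, and none was called. The median was 0.69 without control 3, 0.18 without control 1 and 0.19 without knockout 2. In Rspo3 cells alone the median of the list was 0.12, and with the gate applied to thinned cells it was 0.04. In cells with neither, Ltbp4 stood at 857 CPM and Ntn4 at 1002 CPM, against 193 and 275 CPM in Rspo3 cells. Cells with neither made up 17.5% ± 10.2 of gated cells in controls and 26.9% ± 11.4 in knockouts (SD, n = 3), and the groups overlapped. The part of this make-up in the periportal values was not tested. Of 14 pericentral genes 10 were higher and 4 lower (median 0.11), with a median of -0.01 without knockout 1, 0.20 without knockout 2 and 0.18 without knockout 3. Thbd was at 277, 232 and 321 CPM against 172, 144 and 246 CPM (-0.56, SE 0.21), and Wnt9b at 120, 86.0 and 83.2 CPM against 90.3, 48.4 and 64.1 CPM (-0.48, SE 0.24), with overlap in both. Of the higher genes, Fabp4 was at 2057, 2159 and 2626 CPM against 2445, 2182 and 2730 CPM (0.10, SE 0.15). Cdh13 was at 1216, 917 and 819 CPM against 1041, 868 and 1167 CPM (0.06, SE 0.18), and both overlapped. The 23 capillarization and large-vessel genes gave 14 higher and 9 lower (median 0.13). Their median was -0.08 in Rspo3 cells alone, 0.07 without control 1, 0.08 without knockout 2, 0.01 without knockout 3 and 0.23 without control 3 or knockout 1. Among them, Vwf was at 774 ± 163.9 CPM in controls and 768 ± 165 CPM in knockouts, and Selp at 3438 ± 424 CPM and 2735 ± 890.2 CPM (SD, n = 3).

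**Figure D5:**
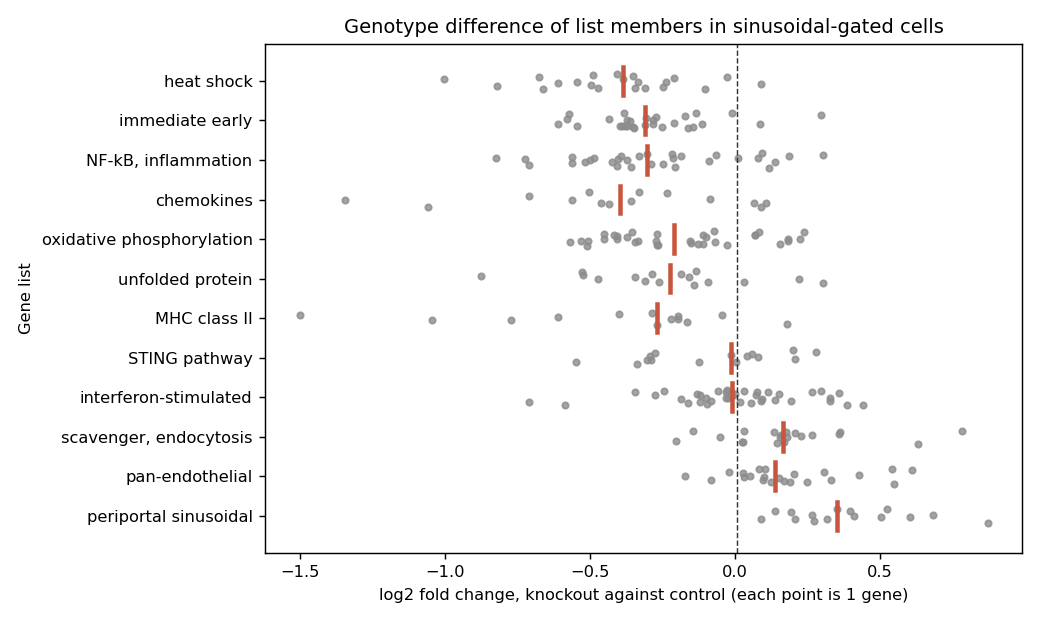
Log2 fold change, knockout against control (x axis), of each tested gene (grey points) in 12 lists (y axis); red bars are list medians and the dashed line is the median of all 11497 genes tested, 0.01. Heat shock genes (median -0.39) lie left of the line, periportal genes (median 0.35) right of it, and interferon-stimulated genes (median -0.01) on both sides.

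Other lists showed no lean in their medians or a small one. Angiocrine factors gave 11 higher and 11 lower of 22 (median 0.02), with the Notch ligand gene Dll1 at 31.1, 50.8 and 44.5 CPM against 20.4, 27.6 and 29.4 CPM (-0.73, SE 0.22) and Pdgfd, a PDGF ligand gene, at 149, 170 and 180 CPM against 195, 295 and 191 CPM (0.44, SE 0.19). Leukocyte adhesion genes gave 13 higher and 4 lower of 17 (median 0.10), with Icam1 at 642, 474 and 554 CPM against 506, 595 and 676 CPM (0.09, SE 0.17). Matrix genes gave 19 higher and 6 lower of 25 (median 0.14), TGF-beta and BMP genes 10 higher and 16 lower of 26 (median -0.02), and cell cycle genes 7 of each (median 0.04). Lipid handling genes gave 16 higher and 7 lower of 23 (median 0.10), with Gpihbp1, which anchors lipoprotein lipase to capillaries, at 188, 211 and 429 CPM against 471, 338 and 385 CPM (0.51, SE 0.32). None of these was called. These medians are small against their movement when 1 library was left out, such as 0.00 without control 1 and 0.36 without control 3 for matrix genes, 0.01 without control 1 for lipid handling, 0.04 without control 1 for adhesion, 0.10 without control 3 for angiocrine factors and 0.61 without control 3 for cell cycle genes.

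Whether any genotype difference was particular to gated cells was asked with an interaction term, each library giving 1 sum for gated and 1 for other endothelial cells. Of 13895 genes, edgeR called 0 (percent called 0), with 292 at an unadjusted p under 0.05 (2.1%), and DESeq2 called 0. Against the stricter endothelial class, 0 of 10250 were called, with 378 at an unadjusted p under 0.05. By smallest p each way, under the same level limit, the planned comparison named Nos1ap (log2 difference of differences -1.14, SE 0.22), Runx2 (-1.91, SE 0.40), Dapk2 (0.81, SE 0.19) and Mertk, a receptor for apoptotic cells (0.99, SE 0.25), all with an adjusted p of 1.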

How the data were processed

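Single-cell libraries of dissociated liver from 6 mice, 3 per group, were sequenced with a 10x Genomics Chromium 3′ kit. The authors deposited raw UMI counts per gene and barcode, made with Cell Ranger 7.1.0 on mm10, and Seurat 4.1.1 is also named, per the submitters' processing notes. The filters and any doublet step of the submitters are not given in the sources used here. Barcodes were kept from 300 detected genes upward when mitochondrial UMIs did not exceed 20%, the gate was applied to raw counts, and counts were summed per library. No doublet caller was run; the gate limits lymphocyte genes, and alternatives removed cells with markers of other types or more than 3 times the median depth.

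Knockout and control were compared with the quasi-likelihood test of edgeR 4.0.16 (TMM factors, filterByExpr, robust fit, no covariate) in R 4.3.3, with Benjamini-Hochberg adjustment over all genes and a threshold of 0.05. DESeq2 1.42.0 was an alternative. Shares were compared with two-sided exact permutation tests (scipy 1.17.1, numpy 2.4.6, pandas 2.3.3, Python 3.11.15). The fits were tested on simulated data with 100 genes changed at each of 2 sizes. The genotype fit recovered 35.4% of genes at a log2 fold change of 1 and 89.5% at 2, with 5 false calls. The interaction fit recovered 11.3% and 53.5%, with 7 false calls. Having 0 called genes therefore does not exclude differences of these sizes. Named genes were Sting1, the gate and marker genes, up to 5 genes of smallest p each way at a mean log2 CPM of at least 4, up to 3 most abundant and up to 3 of smallest p in each of 31 lists, the leading genes against other endothelial cells, and up to 2 of highest level in each of 14 lists of other cell types. Genes outside this rule (Gata4, Maf, Ptprc, the genes of the subsets and of the stricter class) were chosen after their values were seen. Members and lists were chosen with earlier results of these data known. Coordinates are from GENCODE on GRCm38 and promoters from RefSeq.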

Additional observations from a re-analysis of the deposited data

How the results depend on the processing

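The genotype comparison gave 0 called genes under all 26 alternatives, with 199 to 863 genes at an unadjusted p under 0.05, the most without control 3; the interaction gave 0 under its 11. The difference in the share of kept cells, 0.108 percentage points, ranged from -1.18 to 2.24 when 1 library was left out (without control 1 and without control 3), and was -0.0106 with a sinusoidal sum of at least 2, -0.0745 without cells holding markers of other types and -0.0280 when Gpm6a was not counted among those markers. The cause was not tested. Nmnat2 turned to 0.15 with the gate on thinned cells and Tank to 0.24 in Rspo3 cells alone. Of 174 named genes, 81 kept their sign in every alternative and 0 were called in any, and of 41 lists with at least 5 tested genes, 14 kept the sign of their median. The heat shock median ran from -0.56 to -0.29. With the replicate number as a replicate block 0 genes were called, with 452 at an unadjusted p under 0.05. After removal of group means, same-numbered libraries correlated at 0.01, 0.39 and -0.11, and libraries of unlike number at -0.38 to 0.31. With so few libraries these values do not settle whether the numbers mark a pairing. Gates on a sum of at least 10 or of 3 to 9, without Dcn, without cells of mixed transcripts, without other markers apart from Gpm6a, the Rspo3 cells, the cells with neither and the stricter endothelial class were added after seeing the data. Depth limits the libraries with few gated cells, 85 in control 1 and 128 in knockout 2.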
